A study of Mus musculus with 2 samples.

Results

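The 36 genes described here encode heat shock proteins, the cytosolic and mitochondrial chaperones that work with them, their co-chaperones and 2 heat shock transcription factors. They were chosen by gene symbol from the 35129 symbols of the deposited tables, with earlier results of these data known, and all 36 were found and averaged 1 FPKM or more. FPKM, fragments per kilobase of gene model and 1000000 reads, is a level per length, so levels of different genes can be set side by side. The RNA came from primary hepatocytes of C57BL/6 mice infected with adenovirus. In the Ad-KLF14 group the virus carried KLF14, a zinc finger factor of the KLF and SP family, and in the control group it is labelled Ad-GFP (the series' design text calls the control an empty vector). Both groups were infected, and no uninfected culture was analysed here. Dose, time after infection and the age of the mice are not given in the sources used here. Each group is 1 library, so there is no replicate check and no test between the conditions. The values below describe these 2 libraries.

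Molecular chaperones hold, fold and disassemble other proteins. Hsp70 proteins bind exposed hydrophobic stretches, Hsp40 (J-domain) proteins deliver clients to them and stimulate their ATPase, and nucleotide exchange factors release the clients. Hsp90 takes over late folding steps of kinases and steroid receptors with the help of co-chaperones, and the ring-shaped chaperonin TRiC, built of CCT subunits, folds actin and tubulin. When unfolded proteins accumulate, the heat shock factor HSF1 binds heat shock elements, arrays of the 5-base unit nGAAn in alternating orientation, and raises the transcription of the inducible members. In hepatocytes, which make large amounts of protein, many of these genes are transcribed at a high basal level.

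Recovered read totals were 11151711 for the Ad-KLF14 library and 11311344 for the Ad-GFP library. Klf14 itself stood at 13164 FPKM with Ad-KLF14, against 0.298 FPKM with Ad-GFP. All 9 hepatocyte markers were measured, with summed levels of 5176 FPKM with Ad-KLF14 and 6214 FPKM with Ad-GFP. Most of this was Alb, at 4172 FPKM with Ad-KLF14 and 5115 FPKM with Ad-GFP. Other hepatocyte markers did not share its direction throughout. The ratio of Tat was 1.68, while Cps1 was low, at 2.80 FPKM with Ad-KLF14 and 4.91 FPKM with Ad-GFP. Markers of other cells were low except for Cd68 and Cldn4. The macrophage list (6 genes in the files) summed to 171 FPKM with Ad-KLF14 and 80.5 FPKM with Ad-GFP, nearly all of it Cd68. The bile duct list (5 genes, Krt7 at 0 in both libraries) summed to 44.2 FPKM with Ad-KLF14 and 113 FPKM with Ad-GFP, nearly all of it Cldn4. The summed levels of endothelial markers were 5.94 FPKM with Ad-KLF14 and 4.60 FPKM with Ad-GFP, those of stellate cell markers 2.26 and 3.21 FPKM, and those of lymphocyte and neutrophil markers 1.22 and 1.21 FPKM, in the same order. Cd3e, Ly6g and S100a9 were at 0 in both libraries. The part of these cells in the chaperone values was not tested, and in bulk RNA a smaller number of cells of a type and less RNA per cell cannot be told apart.

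The DNA upstream of several members is shown first, because heat shock elements define how the inducible ones are switched on. The sequences are those of RefSeq on GRCm38.p6, a later build than the mm8 build of the submitters' processing notes. They run 5′ to 3′ on the strand of the gene and end at the base before its annotated start. Capitals mark every match to a pair of inverted heat shock units, GAANNTTC or TTCNNGAA, and to the 3-unit array GAANNTTCNNGAA, which contains both. The inducible Hsp70 genes Hspa1a (chr17:34972157-34972406, minus strand) and Hspa1b (chr17:34959239-34959488, minus strand) have upstream windows that differ at 3 of 250 bases (98.8% identity), and each holds 1 pair of inverted units.
Hspa1a: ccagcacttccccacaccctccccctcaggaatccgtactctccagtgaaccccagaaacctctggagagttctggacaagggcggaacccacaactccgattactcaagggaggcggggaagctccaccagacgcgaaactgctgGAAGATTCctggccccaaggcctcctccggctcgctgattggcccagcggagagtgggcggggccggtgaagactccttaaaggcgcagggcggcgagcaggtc
Hspa1b: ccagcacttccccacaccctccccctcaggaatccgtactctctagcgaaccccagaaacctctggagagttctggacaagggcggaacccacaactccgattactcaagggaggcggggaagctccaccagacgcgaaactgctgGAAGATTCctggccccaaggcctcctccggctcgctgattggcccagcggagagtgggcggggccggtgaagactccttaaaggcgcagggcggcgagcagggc

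Hspd1 and Hspe1, which encode the barrel (Hsp60) and the lid (Hsp10) of the mitochondrial chaperonin, are transcribed from opposite strands. Hspd1 has 2 annotated starts. One lies beyond the Hspe1 start, so that transcripts from it would overlap Hspe1, and its window (chr1:55088244-55088493) holds no match. Between the other and the Hspe1 start lie 215 bases (chr1:55087933-55088147). That stretch of 215 bases, written here on the plus strand, which is that of Hspe1, carries an unbroken run of 18 bases of alternating units.
Hspd1-Hspe1: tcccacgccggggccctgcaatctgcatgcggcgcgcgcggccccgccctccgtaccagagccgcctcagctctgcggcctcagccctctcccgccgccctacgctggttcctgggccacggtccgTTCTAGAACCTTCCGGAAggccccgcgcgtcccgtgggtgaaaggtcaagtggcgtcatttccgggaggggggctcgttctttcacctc

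Hspb8 (chr5:116422865-116423114, minus strand) and Stip1 (chr19:7040027-7040276, minus strand) are shown as members that were higher with Ad-KLF14, and Fkbp4 (chr6:128438657-128438906, minus strand) as the one with the lowest log2 ratio. The windows of Hspb8 and Stip1 hold no such match, and that of Fkbp4 holds 1 pair of inverted units.
Hspb8: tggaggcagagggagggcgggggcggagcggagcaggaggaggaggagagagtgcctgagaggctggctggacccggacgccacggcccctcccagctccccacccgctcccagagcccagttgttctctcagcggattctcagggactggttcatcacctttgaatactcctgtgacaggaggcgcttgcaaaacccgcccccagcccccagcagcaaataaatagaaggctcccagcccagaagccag
Stip1: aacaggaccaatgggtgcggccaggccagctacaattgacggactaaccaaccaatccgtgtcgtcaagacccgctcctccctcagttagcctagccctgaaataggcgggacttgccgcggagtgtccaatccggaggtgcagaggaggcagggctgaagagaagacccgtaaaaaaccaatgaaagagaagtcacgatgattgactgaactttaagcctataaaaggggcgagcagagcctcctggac
Fkbp4: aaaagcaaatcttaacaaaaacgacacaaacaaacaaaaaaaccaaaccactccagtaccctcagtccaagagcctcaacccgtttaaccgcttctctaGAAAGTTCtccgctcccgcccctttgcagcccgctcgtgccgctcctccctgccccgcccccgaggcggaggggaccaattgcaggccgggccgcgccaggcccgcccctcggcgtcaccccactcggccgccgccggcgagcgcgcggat

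Upstream windows of 250 bases were found for 28 of the 36 genes, 38 windows in all. The others (Hspa8, Hspa9, Hsp90aa1, Hsp90ab1, St13, Hsf1, Cryab and Cct4) had no entry. On either strand, GAANNTTCNNGAA occurred in 4 of the 38 windows (10.5%), against 0.466% of all 32851 windows of the table. These 4 belong to Dnajb6, Hspd1 and Hspe1 and overlap each other, so they stand for 2 stretches of DNA. GAANNTTC occurred in 26.3% of the members' windows against 6.69% of all windows, and TTCNNGAA in 21.1% against 7.17%. The GC box GGGCGG and the CACCC box CCACCC, the kinds of site that KLF and SP factors bind, occurred in 84.2% and 34.2% of the members' windows, against 32.7% and 28.1% of all windows. The set of all windows was not limited to expressed genes or matched for base content, and the differences in share were not tested. A match is a run of letters and says nothing of binding.

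As a group the chaperone genes took up about the same part of the RNA in both libraries. Their levels summed to 7512 FPKM with Ad-KLF14, or 1.58% of the sum over all genes, and to 7467 FPKM with Ad-GFP, or 1.51%. The log2 ratio of a gene is the Ad-KLF14 value minus the Ad-GFP value after log2(FPKM + 1). Its median was 0.07 over the 36 genes, beside −0.03 over all 12419 genes that averaged 1 FPKM or more. Of the members 21 were above 0 and 15 below, beside 5999 above and 6420 below among all 12419 genes. On that scale 3 members were higher by 2-fold or more (6.37% of all genes) and 0 lower by as much (8.99% of all genes). At 1.5-fold, 6 were higher (16.7% of all genes) and 2 lower (20.9% of all genes), and the remaining 28 (77.8%) lay within 1.5-fold, against 62.3% of all genes. Among the 32 members that averaged 20 FPKM or more, 26 (81.2%) lay within 1.5-fold, against 66.9% of the 4532 genes at that level.

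**Figure D1:**
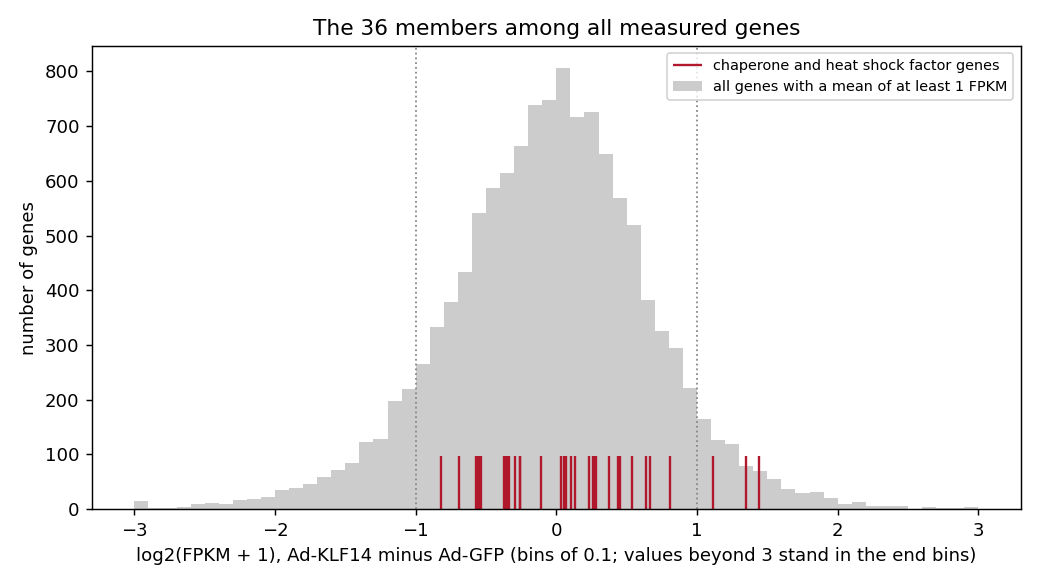
Number of genes (vertical axis) by log2 ratio, Ad-KLF14 over Ad-GFP (horizontal axis, bins of 0.1), for 12419 genes in grey, with the 36 chaperone and heat shock factor genes as red ticks and 2-fold as dotted lines. The ticks run from −0.82 to 1.44, and 3 of them lie beyond 2-fold, all on the Ad-KLF14 side.

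Small differences can be resolved in these genes because they are deeply sequenced. For each ratio of FPKM values a 95% counting interval was computed from the recovered reads (exact Clopper-Pearson). It covers counting error between the 2 libraries only and says nothing of the spread between cultures. The interval lay above 1 for 18 members (33.4% of all genes), below 1 for 14 (37.2% of all genes) and held 1 for 4, namely Dnajb1, Hspb1, Cryab and Cct3. Among the 32 members that averaged 20 FPKM or more, 15 intervals (46.9%) lay above 1 and 14 (43.8%) below 1, against 41.2% and 40.2% of all genes at that level.

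**Figure D2:**
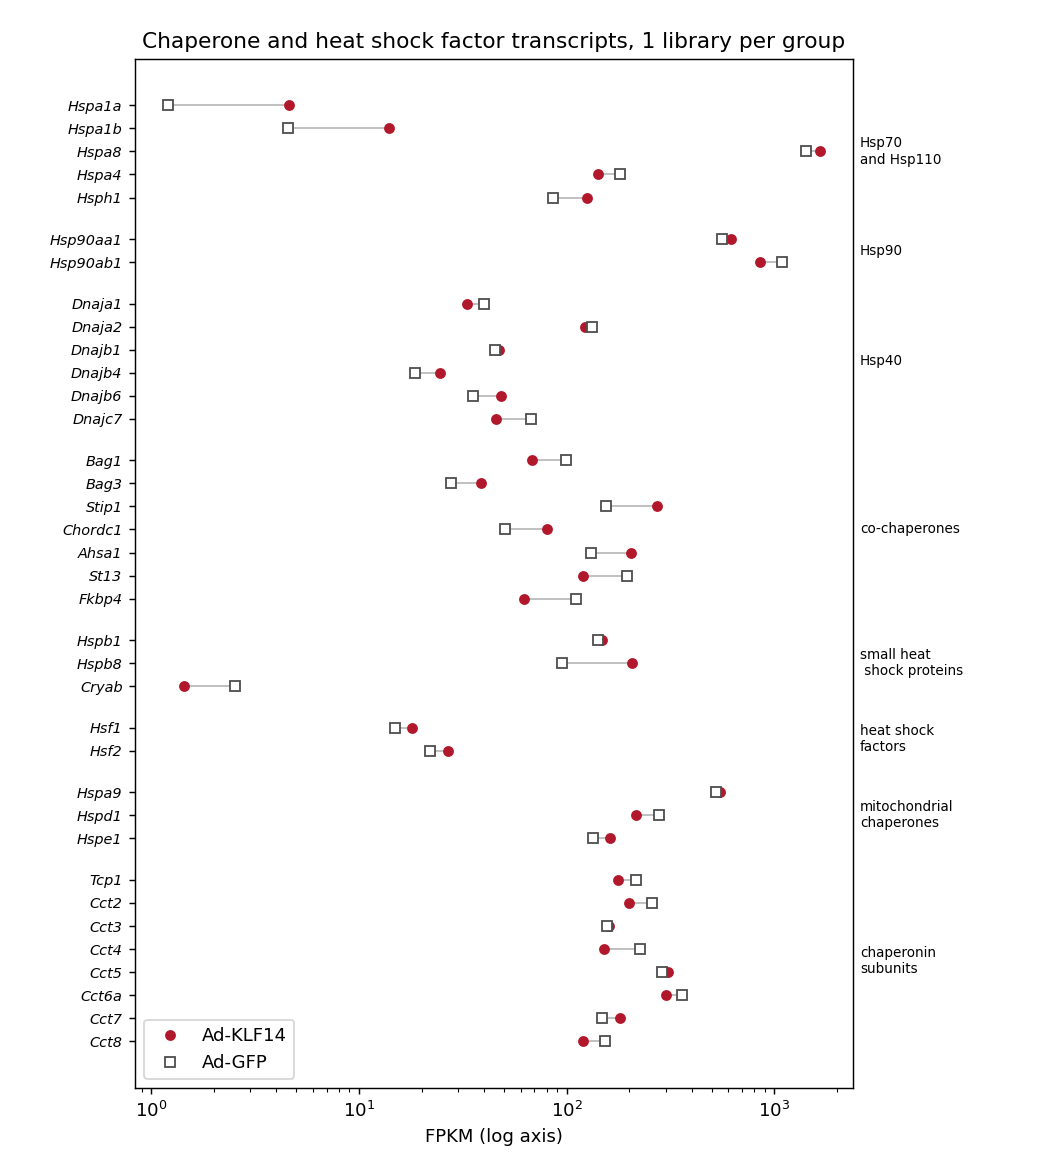
Level in FPKM (log axis) of each of the 36 genes, grouped by family, with Ad-KLF14 (filled circles) and the Ad-GFP library (open squares), 1 library each. Hspa8 is the highest, at 1663 FPKM with Ad-KLF14 and 1418 FPKM with Ad-GFP, and Hspa1a, Hspa1b and Cryab are the lowest.

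The largest log2 ratios were those of the inducible Hsp70 pair, which was near the bottom of the family in level. This order depends on the pseudocount of 1 FPKM. With 5 FPKM the log2 ratios of Hspa1b and Hspa1a were 0.99 and 0.63, under 2-fold, and that of Hspb8 was 1.09. Hspa1b was at 13.98 FPKM with Ad-KLF14 and 4.53 FPKM with Ad-GFP, a ratio of 3.09 (interval 2.35 to 4.08). Hspa1a was at 4.62 FPKM with Ad-KLF14 and 1.20 FPKM with Ad-GFP, a ratio of 3.84 (interval 2.29 to 6.75), from at least 72 and 19 reads. Both copies were thus higher with Ad-KLF14, but they are not independent. Of the 50-base stretches of the Hspa1a transcript 58.8% also occur in Hspa1b, and 62.3% of those of Hspa1b occur in Hspa1a, so reads could have been shared out between them. How such reads were assigned is not stated.

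The constitutive Hsp70, Hspa8, which carries out most everyday folding and uncoats clathrin vesicles, ranked 19 among all genes of the Ad-KLF14 library and 25 with Ad-GFP. It was at 1663 FPKM with Ad-KLF14 and 1418 FPKM with Ad-GFP, a ratio of 1.17 (interval 1.16 to 1.19). Hspa1b thus stayed a minor form beside Hspa8 in either library, at 0.00841 of its level with Ad-KLF14 and 0.00320 with Ad-GFP. The level of Hspa8 is uncertain, since 73.2% of the 50-base stretches of its transcript occur in other annotated genes, mostly the gene model Gm15459. The Hsp110 genes among the members, whose proteins release nucleotide from Hsp70, differed in direction. Hsph1, the heat-inducible one, was at 125 FPKM with Ad-KLF14 and 86.0 FPKM with Ad-GFP, a ratio of 1.46 (interval 1.40 to 1.52). Hspa4 was at 142 FPKM with Ad-KLF14 and 179.7 FPKM with Ad-GFP, 1.27-fold lower (interval 1.23 to 1.305). Hspa4 stayed the more abundant of these in both libraries, with a ratio of Hsph1 to Hspa4 of 0.884 with Ad-KLF14 and 0.479 with Ad-GFP. The related gene Hspa4l, no member but listed below among heat shock factor targets, was 1.68-fold lower with Ad-KLF14 (interval 1.49 to 1.89). Hsph1 and Hspa4l thus lay on opposite sides of 1.

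The cytosolic Hsp90 genes also differed in direction, on a smaller scale. Hsp90aa1, the inducible form, was at 618 FPKM with Ad-KLF14 and 563 FPKM with Ad-GFP, a ratio of 1.098 (interval 1.07 to 1.13). Hsp90ab1, the constitutive form, was at 853 FPKM with Ad-KLF14 and 1092 FPKM with Ad-GFP, 1.28-fold lower (interval 1.26 to 1.301). The constitutive form stayed the more abundant one in both. The ratio of Hsp90aa1 to Hsp90ab1 was 0.724 with Ad-KLF14 and 0.515 with Ad-GFP. For Hsp90aa1, 58.5% of the 50-base stretches occur in other annotated genes, and for Hsp90ab1 4.49%.

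The Hsp40 genes, whose J-domain proteins feed clients to Hsp70, lay within 1.5-fold throughout on the log2(FPKM + 1) scale, as did 62.3% of all genes. Dnajb1, the J-protein best known as heat-inducible, was at 47.0 FPKM with Ad-KLF14 and 45.3 FPKM with Ad-GFP, and the interval of its ratio (0.956 to 1.13) held 1. Dnajb1 thus did not differ detectably at this depth, while Hspa1a and Hspa1b were higher. The cause of this was not tested. Dnajb4 was at 24.5 FPKM with Ad-KLF14 and 18.6 FPKM with Ad-GFP, a ratio of 1.32 (interval 1.18 to 1.47). Dnajb6, which keeps aggregation-prone peptides soluble, was at 48.1 FPKM with Ad-KLF14 and 35.3 FPKM with Ad-GFP, a ratio of 1.36 (interval 1.26 to 1.48). The class A genes among the members, whose proteins are the closest relatives of bacterial DnaJ, were on the other side. Outside the members class A went both ways, with a ratio of 0.754 for Dnaja3 (interval 0.687 to 0.827) and 1.90 for Dnaja4 (interval 1.59 to 2.29). Dnaja3 and Dnaja4 were named after their values were seen. Dnaja1 was at 33.2 FPKM with Ad-KLF14 and 40.0 FPKM with Ad-GFP, 1.20-fold lower (interval 1.13 to 1.27), and Dnaja2 was at 123 FPKM with Ad-KLF14 and 132 FPKM with Ad-GFP, 1.08-fold lower (interval 1.03 to 1.13). Dnajc7, a J-protein with tetratricopeptide (TPR) repeats that binds both Hsp70 and Hsp90, was at 45.7 FPKM with Ad-KLF14 and 67.6 FPKM with Ad-GFP, 1.48-fold lower (interval 1.37 to 1.59).

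The 7 co-chaperones went both ways. At 1.5-fold 3 were higher (16.7% of all genes) and 2 lower (20.9% of all genes). In none did the interval hold 1, as was the case for 70.6% of all genes. Among genes that averaged 20 FPKM or more, as all 7 did, that share was 81.5%. On the higher side, Stip1 (HOP), the TPR scaffold that bridges Hsp70 and Hsp90, was at 271 FPKM with Ad-KLF14 and 155 FPKM with Ad-GFP, a ratio of 1.76 (interval 1.69 to 1.83). Chordc1 (morgana), a partner of Hsp90, was at 80.8 FPKM with Ad-KLF14 and 50.5 FPKM with Ad-GFP, a ratio of 1.60 (interval 1.49 to 1.72). Ahsa1 (Aha1), the activator of the Hsp90 ATPase, was at 203 FPKM with Ad-KLF14 and 130.5 FPKM with Ad-GFP, a ratio of 1.56 (interval 1.47 to 1.65). All 3 work on Hsp90, and each was higher with Ad-KLF14 while the summed level of both Hsp90 genes was 1471 FPKM with Ad-KLF14 and 1654 FPKM with Ad-GFP.

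Fkbp4 and St13, other TPR partners of the same machinery among the members, were lower. Fkbp4 (FKBP52), the immunophilin of Hsp90 complexes with steroid receptors, was at 62.1 FPKM with Ad-KLF14 and 110.4 FPKM with Ad-GFP, 1.78-fold lower (interval 1.67 to 1.90). St13 (HIP), which stabilises the ADP-bound state of Hsp70, was at 120.3 FPKM with Ad-KLF14 and 195 FPKM with Ad-GFP, 1.62-fold lower (interval 1.502 to 1.75). The order of the scaffolds HOP and HIP was thus reversed between the libraries, with a ratio of Stip1 to St13 of 2.26 with Ad-KLF14 and 0.793 with Ad-GFP. The nucleotide exchange factors of the BAG family among the members, Bag3 and Bag1, also went apart. Outside the members Bag2, Bag4 and Bag5 had ratios of 1.24, 1.36 and 1.66, each with an interval above 1. These were named after their values were seen. Bag3, which joins Hsp70 to selective autophagy and is stress-inducible, was at 38.5 FPKM with Ad-KLF14 and 27.9 FPKM with Ad-GFP, a ratio of 1.38 (interval 1.26 to 1.51). Bag1, which joins Hsp70 to the proteasome, was at 68.1 FPKM with Ad-KLF14 and 99.5 FPKM with Ad-GFP, 1.46-fold lower (interval 1.35 to 1.58). Bag1 remained above Bag3 in both, with a ratio of Bag3 to Bag1 of 0.566 with Ad-KLF14 and 0.280 with Ad-GFP.

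**Figure D3:**
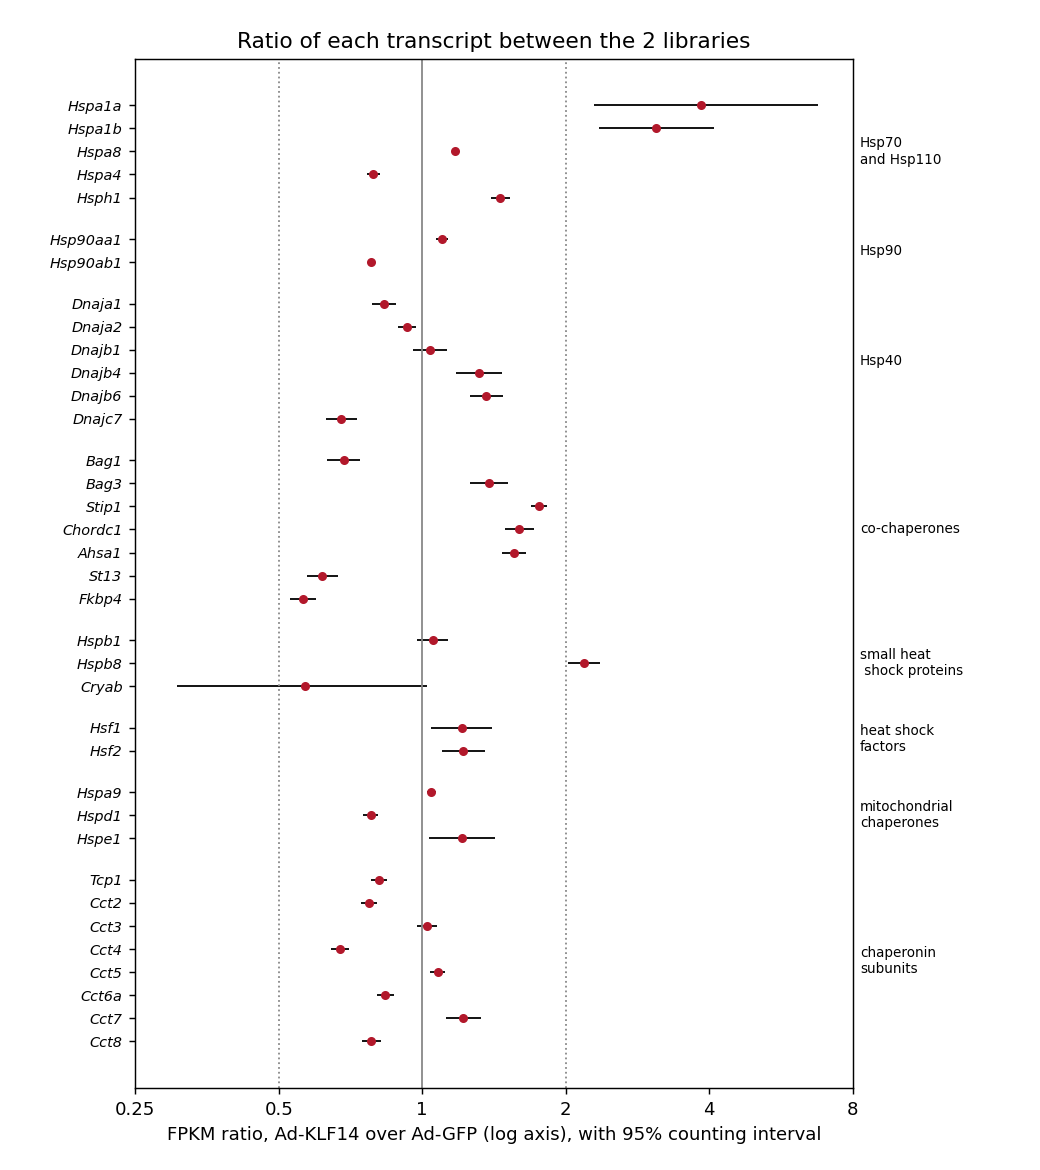
Ratio of the FPKM values, Ad-KLF14 over Ad-GFP (log axis), with the 95% counting interval, for the 36 genes by family. Dotted lines mark ratios of 0.5 and 2, and Hspa1a, Hspa1b and Hspb8 stand to the right of 2, while the co-chaperones and chaperonin subunits fall on both sides of 1.

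Among small heat shock proteins, which hold unfolded proteins without using ATP, Hspb8 had the largest log2 ratio after those of Hspa1a and Hspa1b. It was at 206 FPKM with Ad-KLF14 and 94.6 FPKM with Ad-GFP, a ratio of 2.18 (interval 2.02 to 2.36), from at least 2084 and 969 reads. None of the 50-base stretches of its transcript occurs in another annotated gene. HSPB8 is the partner of BAG3 in chaperone-assisted autophagy, and both genes were higher with Ad-KLF14. Hspb1 (Hsp25 in the mouse), an abundant stress protein that protects actin filaments, was at 148 FPKM with Ad-KLF14 and 141 FPKM with Ad-GFP, and the interval of its ratio (0.977 to 1.13) held 1. Of its 50-base stretches 51.6% occur in a processed copy. Hspb8 was thus above Hspb1 with Ad-KLF14 and below it with Ad-GFP. Cryab (alpha B-crystallin) was barely transcribed, at 1.44 FPKM with Ad-KLF14 and 2.54 FPKM with Ad-GFP, and at 19 and 34 reads a difference was not detectable (interval of the ratio 0.305 to 1.02).

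Transcripts of the factors themselves differed little. Hsf1, the main activator of the heat shock response, was at 18.0 FPKM with Ad-KLF14 and 14.9 FPKM with Ad-GFP, a ratio of 1.21 (interval 1.04 to 1.40). Hsf2, which can form trimers with HSF1, was at 26.7 FPKM with Ad-KLF14 and 21.9 FPKM with Ad-GFP, a ratio of 1.22 (interval 1.098 to 1.36). HSF1 is controlled mainly after translation, which transcript levels do not show.

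The mitochondrial chaperones gave no common direction. Hspa9 (mortalin), the Hsp70 of the matrix and of the import motor, was at 548 FPKM with Ad-KLF14 and 524 FPKM with Ad-GFP, a ratio of 1.04 (interval 1.02 to 1.07). Hspd1 (Hsp60) was at 217 FPKM with Ad-KLF14 and 278 FPKM with Ad-GFP, 1.28-fold lower (interval 1.24 to 1.33). Its lid, Hspe1 (Hsp10), was at 162 FPKM with Ad-KLF14 and 134 FPKM with Ad-GFP, a ratio of 1.21 (interval 1.04 to 1.42). Hspd1 and Hspe1 therefore lay on opposite sides of 1, although the DNA printed above lies between the Hspe1 start and an annotated start of Hspd1. Their values are uncertain, as 44.8% of the 50-base stretches of Hspd1 and 36.1% of those of Hspe1 occur in other annotated genes, many of them processed copies.

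The 8 subunits of the cytosolic chaperonin assemble into rings with 1 copy of each. Their transcripts were not equal in level, with 119.7 to 309 FPKM with Ad-KLF14 and 148 to 360.1 FPKM with Ad-GFP. The highest subunit stood 2.58-fold above the lowest with Ad-KLF14 and 2.43-fold with Ad-GFP, so the spread between subunits was similar. Their mean was 199.9 ± 69.0 FPKM with Ad-KLF14 and 225.7 ± 74.5 FPKM with Ad-GFP, where the SD is over the 8 subunits and not over replicates. All 8 lay within 1.5-fold on the log2(FPKM + 1) scale, as did 66.9% of all genes that averaged 20 FPKM or more, with a median log2 ratio of −0.28. Cct4 was lowest relative to the control, at 152 FPKM with Ad-KLF14 and 226 FPKM with Ad-GFP, 1.49-fold lower (interval 1.42 to 1.55). Cct2 (1.29-fold), Cct8 (1.28-fold), Tcp1 (1.23-fold) and Cct6a (1.20-fold) were also lower, each with an interval below 1. Cct7 was at 181 FPKM with Ad-KLF14 and 148 FPKM with Ad-GFP, a ratio of 1.22 (interval 1.12 to 1.33). Cct5 had a ratio of 1.08 (interval 1.04 to 1.12), and Cct3 a ratio of 1.02 whose interval (0.977 to 1.07) held 1. Subunits of 1 complex therefore stood on both sides of 1.

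Genes around these 36 were described by 3 lists, shown with the members in the plot of related gene lists. Of 67 further cytosolic and mitochondrial chaperones and co-chaperones, 66 were in the files and 58 averaged 1 FPKM or more. Their median log2 ratio was 0.12, with 2 genes higher by 2-fold or more (6.37% of all genes) and 5 lower by as much (8.99% of all genes), so neither share stood above that of all genes. The 4 with the largest absolute log2 ratios were all lower. Hspb11, a component of intraflagellar transport rather than a classical chaperone, was at 2.41 FPKM with Ad-KLF14 and 18.2 FPKM with Ad-GFP, 7.56-fold lower (interval 4.40 to 13.9). Dnajb2, a J-protein that sends clients to the proteasome, was 3.83-fold lower, Dnajc21, a J-protein of ribosome maturation, 3.19-fold lower, and Tbca, a cofactor of tubulin folding, 2.68-fold lower.

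Of 15 measured genes listed as other targets of heat shock factors, 4 were higher by 2-fold or more (6.37% of all genes) and 0 lower by as much (8.99% of all genes), with a median log2 ratio of 0.18. The list was chosen with earlier results of these data known. The 4 were Tcp11l2 (6.32-fold, interval 5.11 to 7.90), Dedd2 (4.73-fold, interval 4.10 to 5.48), the gene of lysosomal alpha-galactosidase, Gla (3.07-fold, interval 2.80 to 3.38), and Zfand2a, which encodes a stress-inducible factor of the proteasome (2.78-fold, interval 2.61 to 2.96). At 1.5-fold 5 were higher (16.7% of all genes) and 3 lower (20.9% of all genes). The fifth higher one was Jmjd6 (1.52-fold) and the lower ones were Hspa4l (1.68-fold), P4ha1 (1.70-fold) and Hmox1 (1.61-fold), all of which were named after their values were seen. The list shares Hspa4l with the further chaperones and Creld2 with the endoplasmic reticulum list.

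Chaperones of the endoplasmic reticulum, which fold secreted proteins under another control circuit, had a median log2 ratio of 0.43 over 16 genes, with 2 of them higher (6.37% of all genes) and 2 lower (8.99% of all genes) by 2-fold or more. Sdf2l1 (2.999-fold) and Manf (2.29-fold) were higher, and Pdia6 (2.25-fold) and Sil1 (2.13-fold) were lower. At 1.5-fold 7 of the 16 were higher (16.7% of all genes) and 3 lower (20.9% of all genes). The Hsp70 of that compartment, Hspa5 (BiP), was at 519 FPKM with Ad-KLF14 and 302 FPKM with Ad-GFP, a ratio of 1.72 (interval 1.67 to 1.76), beside the ratio of 1.17 for the cytosolic Hspa8 and 1.04 for the mitochondrial Hspa9. Hspa5 was named after its values were seen.

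**Figure D4:**
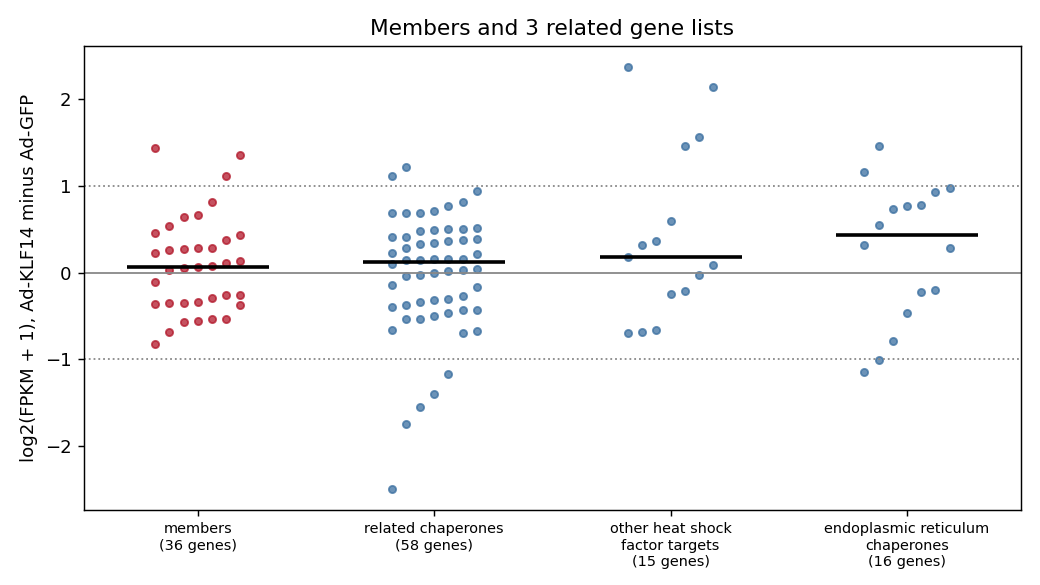
Difference in log2(FPKM + 1), Ad-KLF14 minus Ad-GFP, for each gene (points) of the 36 members, 58 related chaperones, 15 other heat shock factor targets and 16 endoplasmic reticulum chaperones, with the median of each as a bar and 2-fold as dotted lines. The medians are 0.07, 0.12, 0.18 and 0.43, and each set holds genes on both sides of 0.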

How the data were processed

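RNA was extracted from mouse primary hepatocytes with Trizol and made into libraries with a TruSeq RNA kit, per the labels' protocols. Bowtie 0.12.2 and the mm8 build are named in the submitters' processing notes, and neither the gene models nor the way reads were assigned to them is given in the sources used here. The authors deposited FPKM values, 1 per gene symbol and library. Whether a table pools cultures is not stated (the design text mentions triplicates, but of retina).

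Reads per gene were recovered from the steps of the FPKM values. The ratio of the library totals came from 679 genes with equal reads in both. The whole-number factor of the totals was the one of 30 candidates for which implied gene lengths lay most often within 1% of a reference transcript (1263 of 3000 low genes, next best 871), so the totals may still be off by a whole factor. Reads per gene are the smallest whole pair and hence lower limits, divided by up to 6 where the implied length exceeded the reference by over 10% (4 members), as split reads would give. Intervals may therefore be too wide, and split reads could make them too narrow.

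Genes that averaged 1 FPKM or more were kept, log2 ratios used a pseudocount of 1 FPKM, which understates differences of low genes, and folds of named genes are ratios of FPKM values. Members, lists and alternatives were chosen with earlier results of these data known. All 36 members are named, and from each related list the 4 measured genes with the largest absolute log2 ratio. Others are named as chosen after their values were seen. Python 3.11.15, pandas 2.3.3, numpy 2.4.6 and scipy 1.17.1 were used. Sequence sharing was computed on GENCODE M21 transcripts (50-base stretches, longest coding transcript of a member, Cct6a not covered).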

Additional observations from a re-analysis of the deposited data

How the results depend on the processing

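The values were recomputed with a pseudocount of 0.1 or 5 FPKM, with 3 other scalings (TMM, upper quartile, TPM), with Klf14 taken out of the totals, without the filter on low genes or with one at 5 FPKM, and without Hspa1a and Hspa1b. The median log2 ratio of the members ranged from 0.06 to 0.12 over these. All 36 members kept the sign of their log2 ratio under the 6 changes of pseudocount or scaling, but this is no check of direction. A pseudocount cannot change a sign. The rescalings moved the ratios only slightly, and the member below 0 nearest to it was Dnaja2, at −0.11 in the main setting. The number of members at least 2-fold higher was 1 with a pseudocount of 5 FPKM, where the share of all genes was 2.38% instead of 6.37%. It was also 1 without Hspa1a and Hspa1b (6.37% of all genes). It was 2 with the filter at 5 FPKM (5.97% of all genes) and 3 under the others (2.41% to 8.87%). The number at least 2-fold lower was 0 under every one of these settings. The share of all genes lower by as much ranged from 3.31% without the filter to 12.01% with a pseudocount of 0.1 FPKM. The number at least 1.5-fold higher ranged from 4 to 7 and the number at least 1.5-fold lower from 2 to 3. For all genes the shares at 1.5-fold (16.7% higher, 20.9% lower) are given for the main setting only, so these ranges have no matching background. No paired analysis was possible because each group holds 1 library, and for the same reason no replicate could be left out. Depth limits Cryab and Hspa1a, and shared sequence limits Hspa1a, Hspa1b, Hspa8, Hsp90aa1, Hspd1, Hspe1, Dnajb6 and Hspb1 (35.8% to 73.2% of 50-base stretches in other genes).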

Other observations

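Some smaller groups within the list of further chaperones were picked out after their values had been seen, and are given as values only. The 5 tubulin folding cofactors, Tbca to Tbce, which complete tubulin after the chaperonin, were all below 0 on the log2 ratio (6420 of all 12419 genes), with a median of −0.43. Tbca was at 41.5 FPKM with Ad-KLF14 and 111 FPKM with Ad-GFP, and Tbcc was the one whose counting interval held 1. The 5 measured prefoldin subunits, which hand actin and tubulin to the chaperonin, had a median log2 ratio of 0.03, with Pfdn1 at 31.9 FPKM with Ad-KLF14 and 51.5 FPKM with Ad-GFP. Of 6 mitochondrial exchange factors, disaggregases and proteases 5 were above 0 (5999 of all 12419 genes), with a median of 0.46. Among them Grpel1, the exchange factor of the matrix Hsp70, was at 70.0 FPKM with Ad-KLF14 and 43.0 FPKM with Ad-GFP, a ratio of 1.63, and Lonp1, a matrix protease, at 191 FPKM with Ad-KLF14 and 143 FPKM with Ad-GFP. Ppp5c, a phosphatase bound to Hsp90, was at 70.7 FPKM with Ad-KLF14 and 36.2 FPKM with Ad-GFP, a ratio of 1.95. Cdc37, which brings kinases to Hsp90, was at 120.6 FPKM with Ad-KLF14 and 84.7 FPKM with Ad-GFP, while Ptges3 (p23), which stabilises its closed state, was at 63.3 FPKM with Ad-KLF14 and 92.3 FPKM with Ad-GFP. Stub1 (CHIP), the ubiquitin ligase of Hsp70 and Hsp90 clients, was at 43.8 FPKM with Ad-KLF14 and 70.0 FPKM with Ad-GFP.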
